A study of Mus musculus with 4 samples.

Results

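The 10 genes described here are Bnip3 and genes of glucose breakdown and lactate handling, followed across the cells of mouse islets left untreated or exposed to cytokines. They were taken by their symbols from the 31053 genes of the count tables, and they are Aldoa, Gapdh, Pgk1, Tpi1, Pkm, Eno1, Ldha, Hk1, Slc16a1 and Bnip3. The 10 symbols filled 11 rows, because Aldoa had 2 gene identifiers. The first, ENSMUSG00000030695, held 53145 unique molecular identifiers (UMIs, each the tag of 1 captured mRNA) in the kept cells and the second, ENSMUSG00000114515, held 1, so that Aldoa below is the first. On GRCm38, Ldha lies at chr7:46841475-46855627, Pgk1 at chrX:106187100-106203699, Bnip3 at chr7:138890836-138909519, Gapdh at chr6:125161715-125166467 and Slc16a1 at chr3:104638668-104658462, each a protein-coding gene in GENCODE M21.

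Islets of adult male C57BL/6 mice, of the substrain C57BL6/J by the study's methods, were left untreated or exposed as intact islets for 6 h to IL-1β, to IFN-γ or to both cytokines, then dissociated and captured as single cells, with 1 library for each of the 4 conditions. The islets of several mice were pooled before they were divided, so that no library stands for a single animal and no condition has a replicate. No p-value is therefore given, and every interval below is a 95% interval that covers counting error only. The libraries of untreated, IL-1β-, IFN-γ- and doubly treated islets held 50731370, 20056630, 31209339 and 25716645 UMIs in 3486, 2911, 3694 and 2480 barcodes. Cells were kept between 200 and 4000 detected genes with mitochondrial UMIs of 12% or less, which left 1521, 2018, 2122 and 1810 cells, 7471 in all. Over all pairs of libraries 16 barcodes were shared. Wherever 4 values follow each other below they are in library order, that is without treatment, then IL-1β, then IFN-γ, then both together.

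Glycolysis splits glucose into pyruvate in the cytosol, and most cells can then reduce pyruvate to lactate with lactate dehydrogenase A (Ldha) and export it through the monocarboxylate transporter MCT1 (Slc16a1). Pancreatic β-cells are known for keeping both genes very low, together with the high-affinity hexokinase Hk1, and for taking up glucose through GLUT2 (Slc2a2). Pyruvate is thereby directed to the mitochondria, which couples glucose to insulin secretion. BNIP3 is a protein of the outer mitochondrial membrane that marks mitochondria for autophagy, and its gene, like many glycolytic genes, is a usual target of hypoxia-inducible factor 1.

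Cells were placed in classes by the hormone that led their UMIs or by markers of non-endocrine cells. β-like cells, led by Ins1 and Ins2, numbered 1187, 1158, 1278 and 1285 with median depths of 17161, 8378, 11090 and 12249 UMIs, and all 10 β-cell markers were detected in at least 34.7% of them. α-like cells, led by Gcg, numbered 88, 322, 277 and 157. δ-like cells, led by Sst, numbered 17, 50, 84 and 35. Cells led by Ppy had only 2 of their 5 markers in at least 10% of cells, with 2 of the 5 at 0, and are called Ppy-led cells.

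The promoters of Ldha, Pgk1 and Bnip3 are shown because these 3 members had the largest folds among those resting on more than 20 UMIs in β-like cells after IL-1β, and because each is a known target of hypoxia-inducible factor. Each sequence is RefSeq's, on GRCm38.p6, and runs from 250 bases before to 50 bases after the transcription start on the gene's own strand. Capitals mark ACGTG, 1 form of the core letters that hypoxia-inducible factor reads, on either strand. Overlapping matches are joined, so that a CACGTG run holds a match on both strands. The form GCGTG was neither marked nor counted. The windows are chr7:46845554-46845853 on the plus strand for Ldha, chrX:106186850-106187149 on the plus strand for Pgk1 and chr7:138909457-138909756 on the minus strand for Bnip3.
Ldha: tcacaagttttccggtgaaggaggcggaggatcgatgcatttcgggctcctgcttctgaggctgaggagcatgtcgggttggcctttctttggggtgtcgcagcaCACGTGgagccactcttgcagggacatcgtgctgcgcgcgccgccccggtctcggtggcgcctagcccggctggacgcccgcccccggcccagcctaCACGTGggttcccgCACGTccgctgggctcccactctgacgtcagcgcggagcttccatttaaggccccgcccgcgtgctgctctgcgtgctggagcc
Pgk1: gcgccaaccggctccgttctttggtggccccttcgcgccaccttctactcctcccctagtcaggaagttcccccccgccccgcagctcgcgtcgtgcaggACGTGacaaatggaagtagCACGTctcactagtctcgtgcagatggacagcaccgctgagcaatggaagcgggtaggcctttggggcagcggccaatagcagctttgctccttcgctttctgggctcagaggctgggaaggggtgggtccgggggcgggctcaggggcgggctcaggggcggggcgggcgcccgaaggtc
Bnip3: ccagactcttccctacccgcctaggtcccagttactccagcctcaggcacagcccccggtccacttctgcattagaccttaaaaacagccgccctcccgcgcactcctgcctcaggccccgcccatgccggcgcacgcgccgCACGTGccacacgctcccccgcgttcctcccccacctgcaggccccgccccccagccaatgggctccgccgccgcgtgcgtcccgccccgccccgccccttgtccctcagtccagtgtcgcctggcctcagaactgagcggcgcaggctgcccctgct
The Ldha window shown held 3 separate matches, the Pgk1 window 2 and the Bnip3 window 1. Another RefSeq window of Ldha, chr7:46846832-46847131, held none, and the Ldha window shown was picked for having the more matches. Of the 10 members, 8 had a RefSeq start whose window held the letters, and Tpi1 and Eno1 had none. Over the members' 17 windows, 9 held the letters. Among all genes listed, 21.8% of 27025 genes and 19.6% of 32851 windows held them. These matches are letters in a window, and binding was not measured.

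In untreated β-like cells 6 glycolytic enzymes among the members were abundant. Levels are given as UMIs of the gene per 1e+06 UMIs of the class in that library (CPM). Pkm, the pyruvate kinase gene, stood at 708 CPM (697 to 720). Gapdh, glyceraldehyde-3-phosphate dehydrogenase, stood at 686 and Aldoa, an aldolase, at 618. Tpi1, triose-phosphate isomerase, stood at 229, Pgk1, phosphoglycerate kinase, at 223 and Eno1, an enolase, at 125. The UMIs were counted at transcript ends, so that these levels do not depend on gene length. The intervals of Pkm and Gapdh overlapped narrowly and those of Tpi1 and Pgk1 more widely, and Aldoa lay below the first pair. Together the 6 genes took 0.259% of the UMIs of untreated β-like cells.

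**Figure D1:**
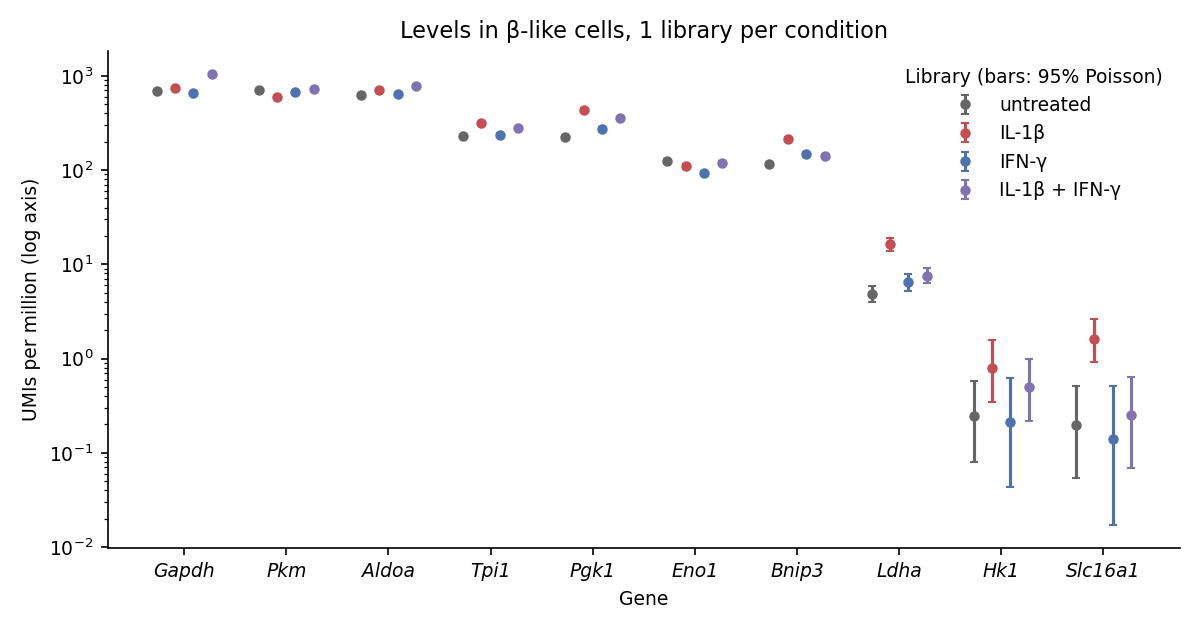
CPM of the 10 genes in β-like cells (vertical log axis) by gene and library, 1 library per condition; bars are 95% Poisson intervals. The 6 glycolytic enzymes and Bnip3 lie at or above 93.4 CPM, and Ldha, Hk1 and Slc16a1 lie at or below 16.4 in all 4 libraries.

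A scale had to be chosen before levels could be compared between libraries. The 6 hormone genes Ins1, Ins2, Iapp, Gcg, Sst and Ppy took 47.5% of the UMIs of untreated β-like cells and 28.6%, 34.5% and 38.0% after IL-1β, IFN-γ and both cytokines. Where the hormone share was lower, the remaining genes took more of the UMIs. The median gene tested in β-like cells stood at 1.29, 1.23 and 1.04 times its untreated level, where a gene was tested if at least 10% of the cells of the class in either library had a UMI of it. Folds are therefore given in CPM, and again relative to the median gene for most members and where a printed fold in β-like cells then lies on the other side of 1. A scale that leaves the hormone genes out of the totals is added for some members and where that scale alone turns a printed fold in β-like cells.

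IL-1β was accompanied in β-like cells by higher Pgk1 and Bnip3 and by lower Pkm and Eno1, while Gapdh and Aldoa depended on the scale. Of the 10 members 7 passed the detection filter, and Ldha, Hk1 and Slc16a1 did not. Of these 7, 2 were at least 1.5-fold higher in CPM, Pgk1 and Bnip3, and none was at least 1.5-fold lower. Of all 8478 genes tested, 35.5% were at least 1.5-fold higher and 9.68% at least 1.5-fold lower, so that the members' share lay near that of all genes. Relative to the median gene 1 member, Pgk1, passed 1.5-fold upward, where 17.2% of all genes did, and 1, Pkm, passed it downward, where 19.6% did. Without the hormone genes Pgk1 and Bnip3 stood at 1.44 and 1.36, short of 1.5-fold. Pkm and Eno1 then stood at 0.62 and 0.64, past 1.5-fold downward. The members' median fold was 1.13 in CPM and 0.88 relative to the median gene.

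Pgk1 stood at 223, 437, 275 and 355 CPM. All 3 treated libraries lay above the untreated one in CPM, IL-1β highest. The fold with IL-1β was 1.96 (1.88 to 2.04) in CPM and 1.52 (1.46 to 1.58) relative to the median gene, and that with both cytokines was 1.59 (1.53 to 1.65) and 1.53. With IFN-γ alone it was 1.23 in CPM and 1.0 relative to the median gene, so that Pgk1 then moved with the bulk of the genes. Leaving out the hormone genes gave 1.44 and 1.34 for IL-1β and both cytokines, and 0.99 for IFN-γ.

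Pkm stood at 708, 600, 676 and 718 CPM, lowest with IL-1β. Its fold with IL-1β was 0.85 (0.82 to 0.87) in CPM and 0.66 (0.64 to 0.68) relative to the median gene. With both cytokines the fold was 1.01 in CPM, 0.98 relative to the median gene and 0.86 without the hormone genes. Eno1 stood at 125, 109, 93.4 and 119 CPM, lowest with IFN-γ. Its fold with IFN-γ was 0.74 (0.70 to 0.80) in CPM and 0.61 (0.57 to 0.65) relative to the median gene, and only 2.56% of the genes tested had a lower fold. Eno1 was thus below its untreated level in all 3 treated libraries on each of the 3 scales, although the interval with both cytokines, 0.89 to 1.004 for the fold of CPM, held 1.

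Tpi1 stood at 229, 312, 236 and 278 CPM, higher with IL-1β by 1.37-fold (1.30 to 1.43), which was 1.06-fold relative to the median gene and 1.003-fold without the hormone genes. With both cytokines Tpi1 was 1.22-fold higher in CPM, 1.17-fold relative to the median gene and 1.03-fold without the hormone genes. Aldoa stood at 618, 700, 641 and 773 CPM. The fold of Aldoa with IL-1β was 1.13 in CPM but 0.88 relative to the median gene and 0.83 without the hormone genes, and with both cytokines it was 1.25, 1.21 and 1.06. With IFN-γ Aldoa and Tpi1 stood at 1.04 and 1.03 in CPM, but both at 0.84 relative to the median gene and both at 0.83 without the hormone genes.

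Gapdh is of added interest because it served as the reference gene in the quantitative PCR of the study, and a change in it would pass into every ratio made with it. It stood at 686, 735, 654 and 1045 CPM, highest with both cytokines (1029 to 1061). The fold with both cytokines was 1.52 (1.49 to 1.56) in CPM, 1.47 relative to the median gene and 1.29 without the hormone genes. With IL-1β alone it was 1.07 in CPM but 0.83 relative to the median gene and 0.79 without the hormone genes, and with IFN-γ alone 0.95 and 0.77. That PCR was made on whole islets and on the α-cell line αTC1, which were not sequenced here. Its Gapdh primers are shown because they set which transcripts such a reference measures.
Gapdh forward: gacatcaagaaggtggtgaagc
Gapdh reverse: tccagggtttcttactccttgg
On GRCm38 they matched exon 6 at chr6:125162360-125162381 and exon 7 at chr6:125162021-125162042 of a 7-exon coding transcript of Gapdh, on the minus strand, and enclosed 251 bases of that transcript. Among the transcripts of GENCODE M21, 126 genes held an exact match to at least 1 primer and 7 held both. The copies of members that were named as such in the count tables, Eno1b, Aldoart1 and Aldoart2, had 79, 5 and 1 UMIs in all kept cells.

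With IFN-γ alone none of the 7 members tested was 1.5-fold higher in CPM, where 17.3% of 8434 genes were, and none was 1.5-fold lower, where 1.24% were. Relative to the median gene none was higher, where 5.09% of genes were, and 1, Eno1, was lower, where 4.87% were. With both cytokines 2 of 7 were higher, Gapdh and Pgk1, where 20.9% of 8626 genes were, and none was lower, where 17.7% were. Relative to the median gene 1 was higher, Pgk1, where 18.8% were, and none was lower, where 19.4% were. Without the hormone genes Gapdh and Pgk1 stood at 1.29 and 1.34, short of 1.5-fold, and neither passed with cells thinned to 4000 UMIs. Summed over the 6 enzymes, the level was 2589.8, 2894, 2576 and 3287 CPM in library order. Counted without the hormone genes the same sums were 4937, 4051, 3936 and 5301, so that the direction with IL-1β turned with the scale, whereas the sum was highest with both cytokines on either.

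**Figure D2:**
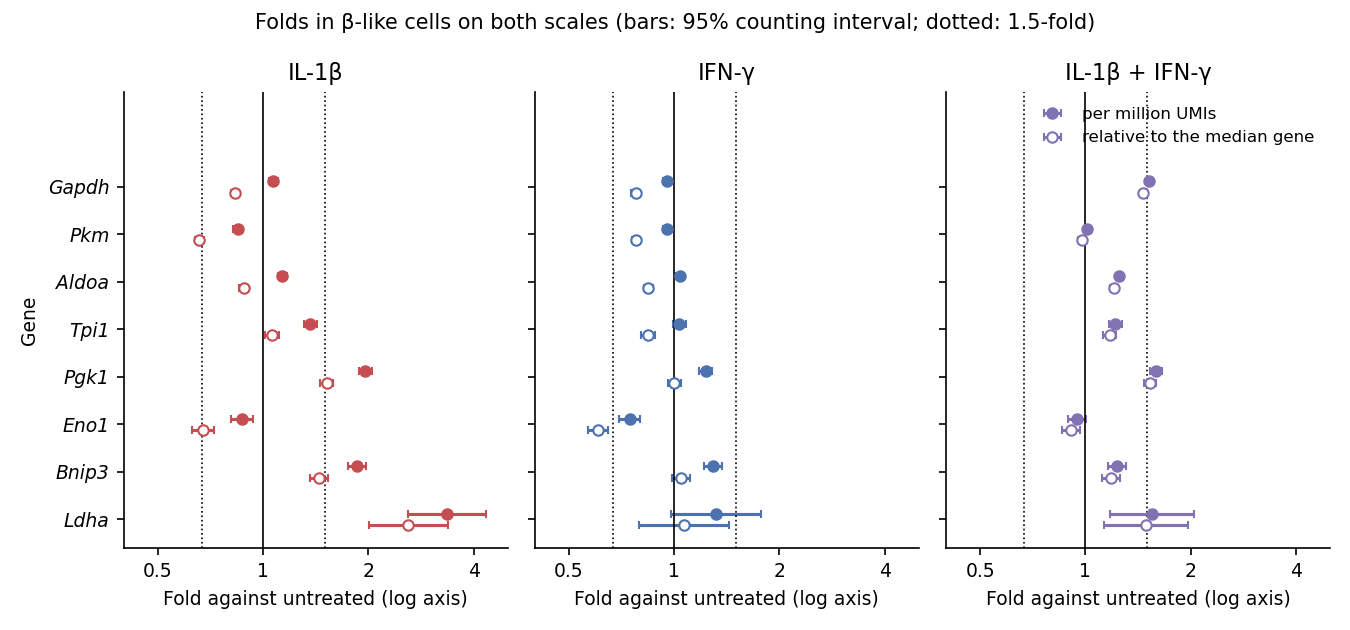
Fold of 8 genes in β-like cells against the untreated library (horizontal log axes) for each treatment; filled points are folds of CPM, open points relative to the median gene tested, bars 95% counting intervals, and dotted lines mark 1.5-fold in both directions. Pgk1, Bnip3 and Ldha lie above 1 on both scales with IL-1β, and Gapdh and Aldoa change sides.

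Cells within a library also differed. β-like cells were thinned to 4000 UMIs and those below that depth were left out, which kept 1149, 1084, 1228 and 1254 cells. The 6 enzymes together then gave a median of 7 UMIs per cell in the untreated library, with 3 and 25 at the 10th and 90th percentiles and 64 at most. The medians were 11, 9 and 12 with IL-1β, IFN-γ and both cytokines, and the 10th percentiles 5, 4 and 5. The variance over the mean was 8.55 in untreated cells against 3.58, 4.28 and 4.90 in the treated libraries. The untreated library thus held the single cell with the most of these transcripts and the lowest median, and its mean of 10.9 UMIs lay between those with IFN-γ, 10.8, and IL-1β, 11.8. The 4000 UMIs of a cell include those of the hormone genes, so that the differing hormone shares enter these counts. Another scale was not applied to them.

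Bnip3 stood at 115, 213, 148 and 141 CPM in β-like cells. The treated libraries were all above the untreated one, IL-1β highest. The fold with IL-1β was 1.86 (1.75 to 1.97) in CPM, 1.44 (1.36 to 1.53) relative to the median gene and 1.36 without the hormone genes. With both cytokines it was 1.23 (1.16 to 1.31), 1.19 and 1.04, and with IFN-γ 1.29, 1.05 and 1.03. The share of β-like cells with a Bnip3 UMI was 58.4%, 67.4%, 65.1% and 65.1%. Bnip3l, the paralog also known as NIX, stood at 79.2, 145, 94.4 and 61.4 CPM, which gave a fold of 1.83 (1.70 to 1.96) with IL-1β but 0.78 (0.72 to 0.84) with both cytokines.

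Ldha was near the limit of detection in β-like cells and highest with IL-1β. It gave 98, 163, 91 and 120 UMIs. Of the β-like cells 49 of 1187 (4.13%, exact binomial 3.07 to 5.42), 107 of 1158 (9.24%, 7.63 to 11.1), 35 of 1278 (2.74%) and 73 of 1285 (5.68%) had a UMI. The levels were 4.88 (3.96 to 5.95), 16.4 (13.9 to 19.1), 6.42 and 7.56 CPM. The intervals of IL-1β and the untreated library did not overlap. The fold was 3.35 (2.59 to 4.35) in CPM and 2.60 (2.01 to 3.38) relative to the median gene. After thinning to 4000 UMIs the shares of cells were 1.91%, 5.07%, 1.22% and 1.99%.

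The Ldha count of the untreated library rested on few cells, since 1 cell held 31 of its 98 UMIs. Leaving out the β-like cells with at least 3 detected markers of an endothelial, macrophage, mesenchymal or ductal kind, 30, 11, 5 and 19 cells, left 65 UMIs in the untreated library and 153 with IL-1β, and the fold became 4.68 (3.48 to 6.36). Without an upper limit on detected genes, which gave 1880 untreated β-like cells in place of 1187 but 1206 with IL-1β in place of 1158, it was 1.72. The folds with IFN-γ and both cytokines, 1.31 and 1.55 in CPM, did not hold their side of 1. They became 0.84 and 0.89 after thinning and 1.81 and 2.10 without the cells bearing other markers.

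The levels of Ldha in β-like cells can be set against those of markers of other cell types in the same cells. In the untreated library Ldha stood at 0.286% of its level in macrophage-like cells, where the 11 macrophage markers summed to 0.374% of theirs. Of that marker sum, 89.3 CPM, C1qa alone gave 70.7, and without C1qa the markers stood at 0.0918%. With IL-1β Ldha stood at 1.18% of its macrophage-like level, and the markers at 0.236%, or 0.0775% without C1qa, with Csf1r, Adgre1 and C1qc among those at 0. With IFN-γ the values were 0.514% for Ldha and 0.187% for the markers, and with both cytokines 0.699% and 0.479%, or 0.0462% without C1qa. Against endothelial-like cells Ldha stood at 0.412%, 1.39%, 0.569% and 0.524% and the 9 endothelial markers at 0.0454%, 0.130%, 0.0735% and 0.124%. The 9 mesenchymal markers summed to at most 4.37 CPM in β-like cells, with Pdgfra at 0 in all 4 libraries. The acinar markers, led by Ctrb1, summed to 59.1, 11.1, 58.5 and 254 CPM. The ductal markers, mostly Krt7, summed to 225, 252, 216 and 212 CPM. In the untreated library Krt7 alone gave 204 of the 225 CPM. With IL-1β the macrophage and acinar sums were thus lower than without treatment. The endothelial sum, 16.5 against 6.57 CPM, the mesenchymal sum, 1.0 against 0.448 CPM, and the ductal sum were higher. The macrophage and ductal sums rested mostly on C1qa and on Krt7, so that they cannot gauge free RNA. The part of free RNA in the Ldha counts was not tested.

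Hk1 and Slc16a1 were rarer still. Hk1 gave 5, 8, 3 and 8 UMIs in β-like cells, or 0.249, 0.803, 0.212 and 0.504 CPM, and the intervals of all 4 overlapped. In library order 3, 5, 1 and 3 of these UMIs lay in the cells with at least 3 markers of other kinds. Slc16a1 gave 4, 16, 2 and 4 UMIs, with never more than 1 in a cell. Its level with IL-1β was 1.61 CPM (0.92 to 2.61) against 0.199 (0.054 to 0.51) without treatment, a fold of 8.06 (2.60 to 33.1). None of the 16 lay in a cell with at least 3 markers of other kinds, and the level was 33.6% of that in macrophage-like cells, which themselves gave 1 UMI. Slc16a3, which encodes the lactate exporter MCT4, gave 16, 25, 13 and 16 UMIs, a fold of 3.15 (1.62 to 6.31) with IL-1β. Ldhb, the other main lactate dehydrogenase subunit, stood at 9.51, 6.63, 8.11 and 5.92 CPM. It was lower by a fold of 0.62 (0.48 to 0.80) with both cytokines and stood at 0.70 (0.52 to 0.93) with IL-1β. Of 17 other genes usually kept low in β-cells, none was detected in 10% of β-like cells of any library. The 2 most abundant, Lmo4 and Mgst1, stood at 2.74 and 1.15 CPM in untreated cells, and Lmo4, a LIM-domain adaptor of transcription, stood at 10.6, 9.66 and 9.64 in the treated libraries, where Mgst1, a glutathione transferase, stood at 0.703, 0.212 and 0.252.

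**Figure D3:**
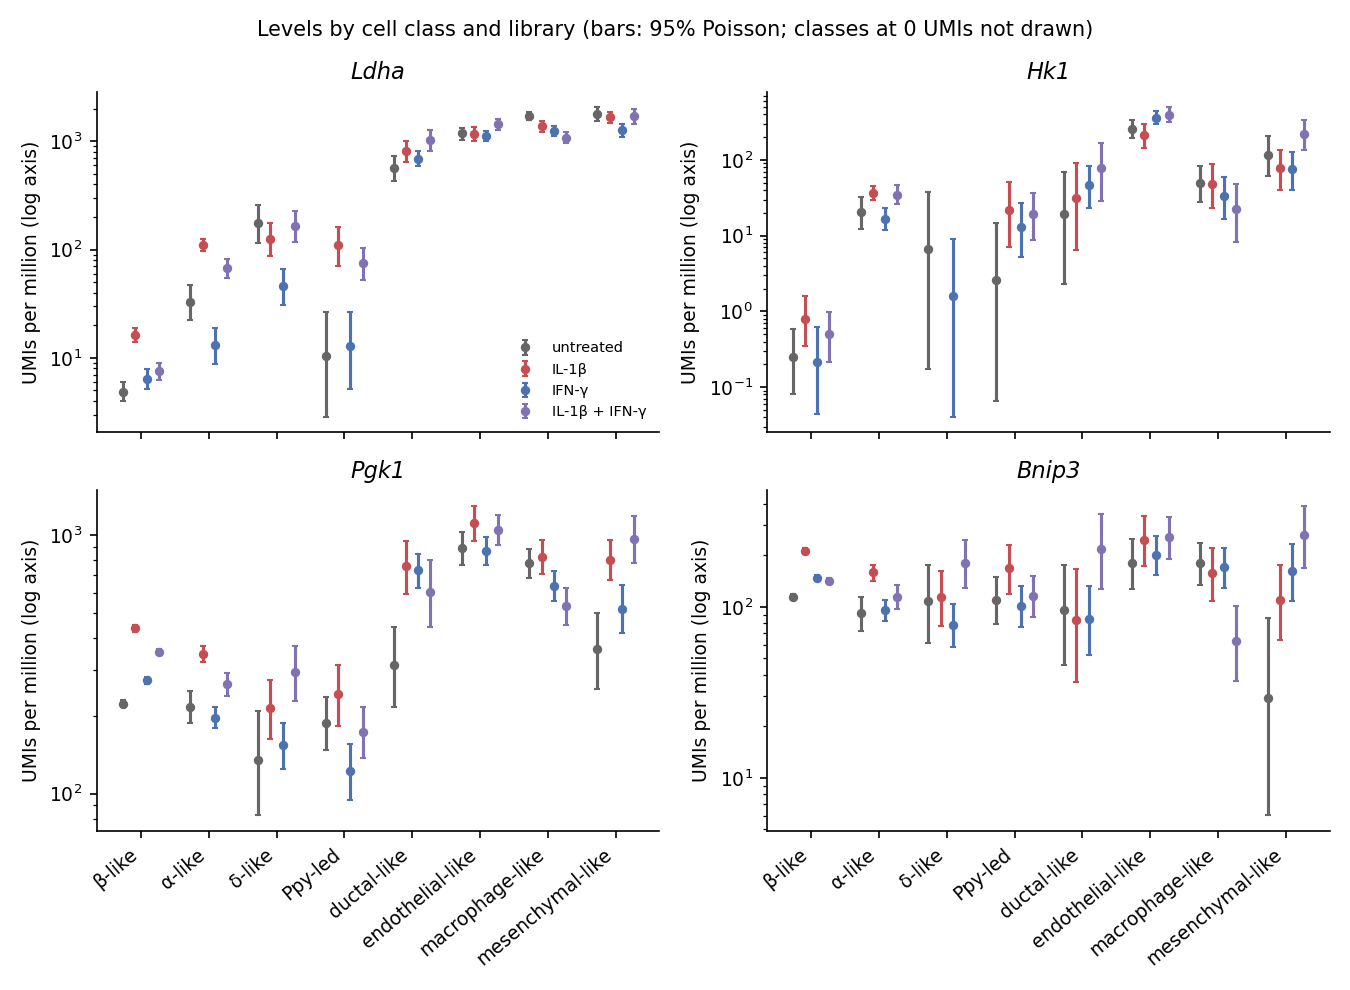
CPM of Ldha, Hk1, Pgk1 and Bnip3 (vertical log axes) in 8 cell classes and 4 libraries, 1 library per condition; bars are 95% Poisson intervals and classes at 0 UMIs are not drawn. Ldha is lowest in β-like cells and above 560 CPM in ductal-like, endothelial-like, macrophage-like and mesenchymal-like cells of all 4 libraries.

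Between the cell classes of the untreated library, Ldha and Hk1 differed more from β-like to α-like, macrophage-like and endothelial-like cells than Gapdh, Pgk1 and Pkm did. Ldha stood at 4.88 CPM in β-like, 10.5 in Ppy-led, 33.2 in α-like, 176 in δ-like, 563 in ductal-like, 1185 in endothelial-like, 1707 in macrophage-like and 1780.0 in mesenchymal-like cells. The Ppy-led level rested on 4 UMIs, and its interval, 2.85 to 26.8, held the β-like level. The δ-like level rested on 26 UMIs, of which 21 lay in 3 of 17 cells. It was lost where the leading hormone had to reach 90% of hormone UMIs. The intervals of macrophage-like and mesenchymal-like cells overlapped, and endothelial-like cells lay below both. The level in α-like cells was 6.80 times that in β-like cells (4.33 to 10.4), which became 3.73 as a mean over cells and 10.7 where hormone UMIs had to reach 10%. The level in macrophage-like cells was 350 times that in β-like cells (281 to 439), or 185 times without the hormone genes in the totals. Hk1 was 82.7 times as high in α-like as in β-like cells (29.6 to 285), on 18 and 5 UMIs, or 38.1 times with no upper limit on detected genes and 179 times without cells bearing other markers. It was highest in endothelial-like cells, at 258 CPM. By contrast Gapdh in α-like cells was 1.07 times its β-like level (0.99 to 1.16), Pgk1 0.97 times and Pkm 0.94 times, although these were 0.73, 0.66 and 0.64 times without the hormone genes in the totals. Slc16a1 gave 4 UMIs in untreated β-like cells and 5, 3 and 2 in macrophage-like, ductal-like and α-like cells, whose levels were 83.5 times (17.98 to 421), 144 times (21.1 to 850) and 11.5 times (1.04 to 80.1) the β-like one. The intervals of these 3 levels overlapped each other.

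In α-like cells IL-1β was accompanied by higher Ldha, Hk1, Bnip3 and Pgk1. Ldha passed the detection filter only through the IL-1β library, where it was high, and is left out of the counts. Of the 8 members that passed in both libraries, 3 were at least 1.5-fold higher, Hk1, Bnip3 and Pgk1, where 16.7% of 5967 such genes were, and none was lower, where 13.9% were. The same 3 passed relative to the median gene, where 21% did, and none was lower, where 10.6% were. Ldha stood at 33.2, 111, 13.02 and 67.0 CPM in library order, which gave folds of 3.34 (2.27 to 5.10) with IL-1β and 2.02 (1.32 to 3.18) with both cytokines. The untreated value rested on 29 UMIs in 6 of 88 cells (6.82%), of which 26 lay in 4 cells. With IL-1β 92 of 322 cells (28.6%, 23.7 to 33.8) had a UMI, with both cytokines 36 of 157 (22.9%) and with IFN-γ 15 of 277 (5.42%), and after thinning the shares were 6.33%, 22.8%, 2.62% and 17.8% in library order.

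Hk1 in α-like cells stood at 20.6, 36.8, 16.6 and 34.9 CPM, a fold of 1.79 (1.06 to 3.17) with IL-1β and 1.70 (0.97 to 3.09) with both cytokines, so that the second interval reached 1. Bnip3 stood at 91.5, 159, 95.2 and 115 CPM, a fold of 1.73 (1.36 to 2.24) with IL-1β. Pgk1 stood at 217, 348, 197 and 266, a fold of 1.60 (1.37 to 1.89) with IL-1β. Gapdh was highest with both cytokines there too, at 992 CPM against 737 untreated, a fold of 1.35 (1.23 to 1.48). With IFN-γ alone Eno1 was the 1 member of 8 tested that was 1.5-fold lower, at 0.56 (0.43 to 0.72), where 8.88% of 8252 genes were lower, and none was higher, where 14.9% were. On the scale of the median gene Eno1 was again the 1 lower, where 11.2% were, and none was higher, where 12% were. Without the hormone genes Tpi1, at 0.656, was past 1.5-fold lower as well. With both cytokines Ldha again passed the filter only through the treated library. Of the 8 that passed in both, 1 was higher, Hk1, where 14.3% of 6466 such genes were, and none was lower, where 21.7% were. On the scale of the median gene 2 were higher, with Gapdh added, where 21.4% were, and none was lower, where 13.3% were.

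Macrophage markers summed to 53.8, 17.0, 26.0 and 49.2 CPM in α-like cells, with Ptprc and Adgre1 among those at 0 in every library. Of the ductal list only Spp1 was abundant, at 2286, 9012, 3183 and 4358 CPM, and Cftr was at 0 throughout. Leaving out α-like cells with markers of other kinds gave an Ldha fold of 3.08 (2.08 to 4.70) with IL-1β.

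δ-like cells were too few for more than their values. Ldha gave 26, 34, 29 and 38 UMIs in library order, or 176, 125, 46.4 and 167 CPM, and 21 of the 26 untreated UMIs lay in 3 of 17 cells. Among 8 members tested, 1 was higher and 2 lower with IL-1β, where 23.7% and 31.8% of all genes were. With IFN-γ none was higher and 3 lower, where 20.2% and 27.1% were, and with both cytokines 3 were higher and none lower, where 23.5% and 42% were. The counts relative to the median gene were 1 and 2 with IL-1β, none and 2 with IFN-γ, and 4 and none with both cytokines, beside 26.8% and 29.1%, 23.1% and 23.9%, and 30.5% and 31.1% of all genes. The lower calls with IFN-γ were lost where Sst had to reach 90% of hormone UMIs. The higher calls with both cytokines were lost, and lower ones appeared, when Sst-led cells with Ppy were counted as δ-like. Ppy-led cells, 29, 29, 57 and 46 in number, gave 4, 25, 7 and 35 Ldha UMIs, or 10.5, 110, 12.9 and 75.1 CPM, so that the 2 libraries with IL-1β lay above the 2 without it and the intervals of the pairs did not overlap. Few cells carried these counts, since 14 of the 25 UMIs and 20 of the 35 lay in 2 cells each, with 15 of the 35 in 1 cell. Of the 25 UMIs 7 lay in a cell with at least 3 markers of other kinds, and without such cells the levels were 10.9, 83.7, 13.1 and 77.8 CPM.

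The non-endocrine classes held 9 to 46 cells a library. Ldha in macrophage-like cells stood at 1707, 1386, 1249 and 1082 CPM and in endothelial-like cells at 1185, 1179, 1128 and 1442. Pgk1 in mesenchymal-like cells stood at 362, 806, 521 and 970 CPM, on 37, 125, 90 and 89 UMIs, and in ductal-like cells at 315, 758, 733 and 603. Bnip3 in mesenchymal-like cells stood at 29.3, 110, 162 and 262 CPM, on 3, 17, 28 and 24 UMIs. The untreated cells were the lowest in each of these 3 series, but in mesenchymal-like cells the untreated interval overlapped that of Bnip3 with IL-1β and that of Pgk1 with IFN-γ. In macrophage-like cells Pgk1 stood at 779, 827, 640 and 533 CPM, on 234, 173, 214 and 143 UMIs. Bnip3 there stood at 180, 158, 170 and 63.4 CPM, on 54, 33, 57 and 17 UMIs. Both genes were lowest with both cytokines in these cells, with intervals apart from the untreated ones. In endothelial-like cells Pgk1 stood at 892, 1117, 871 and 1051 CPM and Bnip3 at 180, 247, 201 and 254, and Bnip3 in ductal-like cells at 95.4, 84.2, 85.2 and 218.

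The other genes of these pathways were read from lists chosen by function, but with earlier results of these data known. The counts of list genes beside the shares of all genes, here and below, are therefore descriptions. A gene that passed the detection filter only through the library where it was high could be called in 1 direction only, so that the lists are counted over the genes that passed in both libraries of a comparison, as the 7 members did. Among 19 other glycolytic genes 9, 10 and 9 did so in β-like cells with IL-1β, IFN-γ and both cytokines. With IL-1β 1 was higher and 1 lower, beside 41.2% and 4.71% of 6705 such genes. With IFN-γ 1 was higher and 1 lower, beside 17.4% and 0.592% of 7596, and with both cytokines 1 was higher and 2 lower, beside 21% and 10.9% of 6999. The counts relative to the median gene were 1 and 4 with IL-1β, beside 19% and 12.3%, none and 2 with IFN-γ, beside 4.11% and 3.34%, and 1 and 2 with both cytokines, beside 18.5% and 12.5%. The median fold of the list was 0.94, 1.04 and 0.90, against 1.38, 1.25 and 1.096 over all such genes. Pfkfb3 passed the filter only through the treated libraries, and its values are a description. Pfkfb3, the inducible enzyme that makes the phosphofructokinase activator fructose 2,6-bisphosphate, stood at 6.87, 130, 18.5 and 135 CPM in library order, or 18.9-fold (15.9 to 22.7), 2.69-fold and 19.7-fold. Pfkp, the platelet form of phosphofructokinase, stood at 52.8, 231, 80.9 and 223, or 4.36-fold, 1.53-fold and 4.21-fold.

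The liver and muscle forms of phosphofructokinase went the other way. Pfkl was lower with IL-1β, at 0.63 (0.58 to 0.69), and with IFN-γ, at 0.57, but stood at 0.97 with both cytokines. Pfkm was lower with IL-1β, at 0.38 (0.27 to 0.54), and with both cytokines, at 0.60, but stood at 1.10 with IFN-γ, which was 0.89 relative to the median gene. With IL-1β and with both cytokines Pfkm passed the filter only through the untreated library. Bpgm, which makes 2,3-bisphosphoglycerate, and Pfkfb2, a second form of the bifunctional enzyme, were lower with both cytokines, at 0.65 and 0.54. Pgam1, phosphoglycerate mutase, and Gpi1, glucose-6-phosphate isomerase, were the most abundant of the list, at 288 and 169 CPM untreated, with folds with IL-1β of 1.42 in CPM (1.105 relative to the median gene) and 1.02 (0.79).

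**Figure D4:**
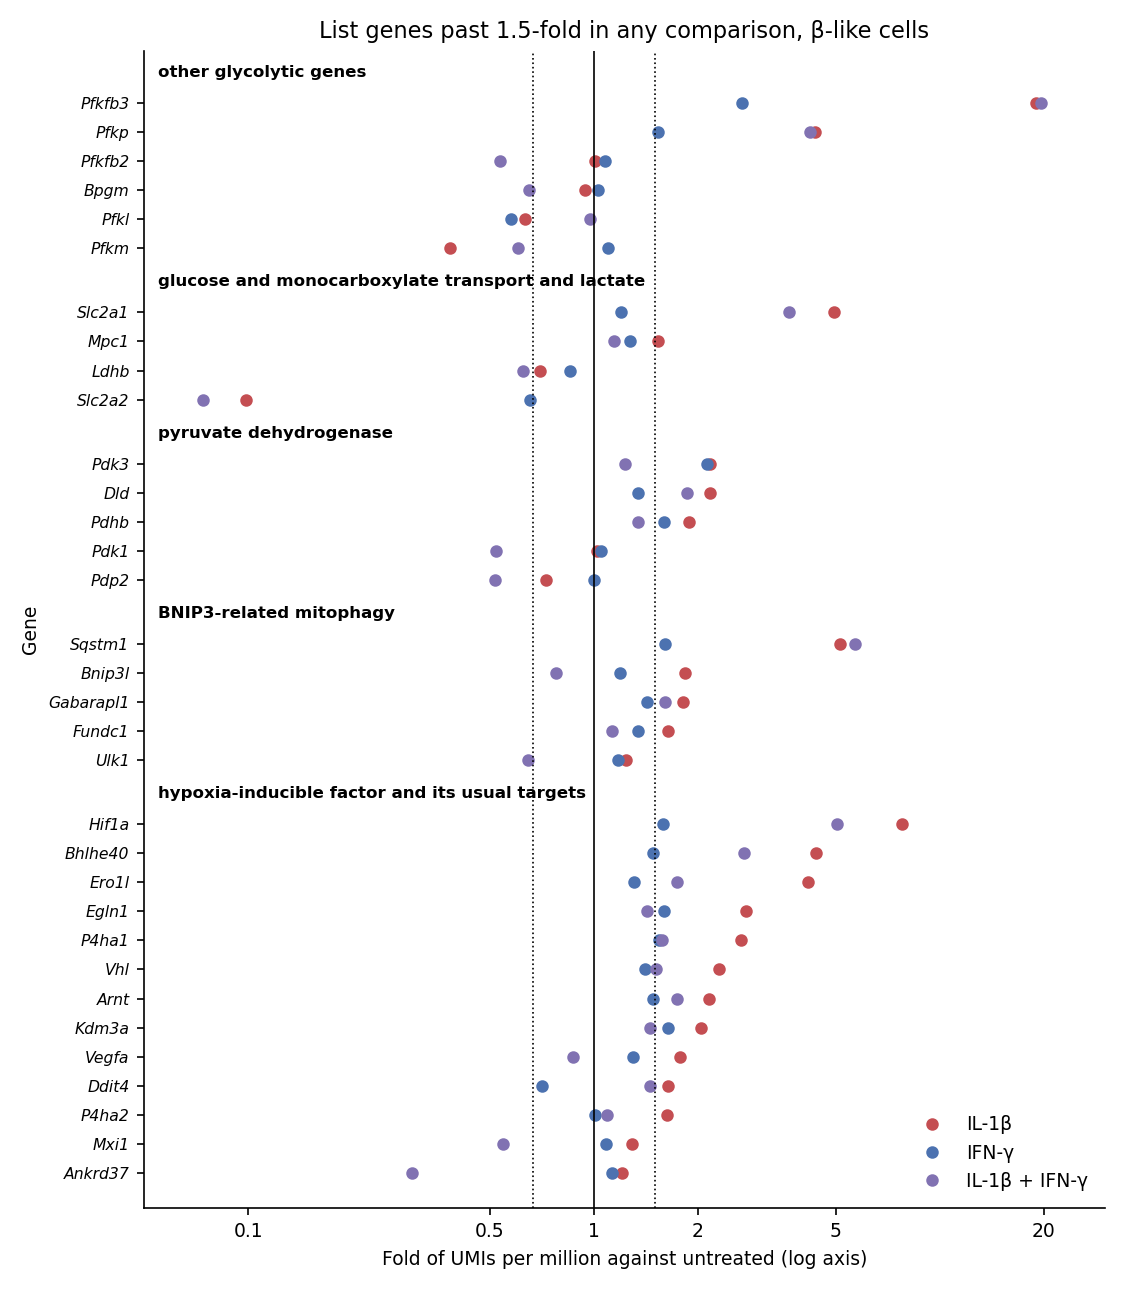
Fold of CPM against the untreated library (horizontal log axis) in β-like cells, for the list genes that passed 1.5-fold in at least 1 comparison; each gene has 1 point per treatment and the dotted lines mark 1.5-fold. Pfkfb3, Hif1a, Sqstm1, Slc2a1 and Bhlhe40 lie farthest to the right with IL-1β, and Slc2a2 lies at 0.099 with IL-1β and 0.074 with both cytokines.

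In the list for transport and lactate 4, 5 and 5 of 11 genes passed in both libraries with IL-1β, IFN-γ and both cytokines. With IL-1β 2 were higher and none lower, beside 41.2% and 4.71% of all such genes, and relative to the median gene 1 was higher and none lower, beside 19% and 12.3%. With IFN-γ none was higher and 1 lower, beside 17.4% and 0.592%, and with both cytokines 1 was higher and 1 lower, beside 21% and 10.9%. The counts with IFN-γ and with both cytokines were the same relative to the median gene, beside 4.11% and 3.34%, and 18.5% and 12.5%. Slc2a2 with IL-1β and Ldhb in all 3 comparisons passed the filter only through the untreated library and are outside these counts. The glucose transporters exchanged rank. Slc2a1, encoding GLUT1, stood at 16.8, 82.9, 20.1 and 61.4 CPM, or 4.94-fold (4.35 to 5.62), 1.197-fold (0.97 relative to the median gene) and 3.66-fold. Slc2a2 stood at 138, 13.7, 90.4 and 10.3, or 0.099-fold (0.082 to 0.117), 0.65-fold and 0.074-fold. Slc2a2 was thus the more abundant of the pair in the untreated and IFN-γ libraries and Slc2a1 in the 2 libraries with IL-1β. Mpc1, a subunit of the mitochondrial pyruvate carrier, was 1.54-fold higher with IL-1β and 1.14-fold with both cytokines, which was 0.97 without the hormone genes. Bsg, the chaperone of the monocarboxylate transporters, was abundant at 558 CPM and stood at 0.91 with IL-1β.

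Of 11 genes around pyruvate dehydrogenase 6, 7 and 6 passed in both libraries. With IL-1β 3 were higher and none lower, beside 41.2% and 4.71% of all such genes, and relative to the median gene 2 were higher and none lower, beside 19% and 12.3%. With IFN-γ 2 were higher and none lower, beside 17.4% and 0.592%, and 1 and none relative to the median gene, beside 4.11% and 3.34%. With both cytokines 1 was higher and 1 lower on either scale, beside 21% and 10.9% in CPM and 18.5% and 12.5% relative to the median gene. Dld, the dihydrolipoamide dehydrogenase subunit, stood at 41.9, 90.6, 56.1 and 78.1 CPM, 2.16-fold with IL-1β and 1.86-fold with both cytokines. Pdhb, a subunit of the first enzyme, was 1.88-fold and 1.60-fold with IL-1β and IFN-γ, and its partner Pdha1 stood at 1.31 with IL-1β, which was 1.02 relative to the median gene and 0.96 without the hormone genes. Pdk3, a kinase that switches the complex off, was 2.16-fold and 2.12-fold with IL-1β and IFN-γ. Pdk1, a kinase known as a target of hypoxia-inducible factor, stood at 1.02 with IL-1β, 0.79 relative to the median gene, and was lower with both cytokines, at 0.52, as was the phosphatase gene Pdp2, at 0.52. Pdp2 passed the filter with IL-1β and with both cytokines only through the untreated library.

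Of the 13 genes of BNIP3-related mitophagy 13, 13 and 12 passed in both libraries. With IL-1β 4 were higher and none lower, beside 41.2% and 4.71% of all such genes. With IFN-γ 1 was higher and none lower, beside 17.4% and 0.592%, and none passed either way relative to the median gene, beside 4.11% and 3.34%. With both cytokines 2 were higher and none lower on either scale, beside 21% and 10.9% in CPM and 18.5% and 12.5% relative to the median gene. Sqstm1, encoding the autophagy receptor p62, stood at 88.1, 453, 141 and 499.9 CPM, or 5.14-fold (4.87 to 5.44), 1.60-fold and 5.67-fold. Gabarapl1, an ATG8-family protein, was 1.81-fold and 1.61-fold higher with IL-1β and both cytokines. Fundc1, a mitophagy receptor, was 1.64-fold higher with IL-1β, and Ulk1, the kinase that starts autophagy, was lower with both cytokines at 0.65 and passed the filter there only through the untreated library. Gabarap and Gabarapl2, the most abundant of the list at 569 and 203 CPM, stood at 1.14 and 1.05 with IL-1β, which was 0.89 and 0.82 relative to the median gene. Relative to the median gene 1 of the 13, Sqstm1, was 1.5-fold higher with IL-1β, beside 19%, and 1, Fkbp8, a mitochondrial LC3 receptor, was 1.5-fold lower at 0.53, beside 12.3%.

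Of 20 genes of hypoxia-inducible factor and its usual targets 15, 15 and 13 passed in both libraries. With IL-1β 11 were higher and none lower, beside 41.2% and 4.71% of all such genes, and the median fold was 2.03, against 1.38 over all such genes. Relative to the median gene 8 were higher, where 19% of such genes were, and 1, Egln2, was lower, where 12.3% were. Hif1a, which encodes the oxygen-regulated subunit, stood at 31.2, 243, 49.4 and 158 CPM, or 7.78-fold (7.12 to 8.51), 1.58-fold and 5.05-fold. Ero1l, an oxidase of the endoplasmic reticulum, stood at 86.0, 358, 112 and 149, or 4.17-fold, 1.31-fold and 1.74-fold. Bhlhe40, a transcriptional repressor, was 4.39-fold and 2.72-fold higher with IL-1β and both cytokines. Egln1 and Vhl, which lead HIF-1α to degradation, were 2.76-fold and 2.31-fold higher with IL-1β, and Arnt, the partner subunit, 2.15-fold. P4ha1 and P4ha2, prolyl hydroxylases of collagen, were 2.67-fold and 1.63-fold, Kdm3a, a histone demethylase, 2.03-fold, Vegfa 1.78-fold and the stress gene Ddit4 1.64-fold.

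With both cytokines 6 of the 13 were higher and none lower, beside 21% and 10.9% of all such genes, and the median fold was 1.45 against 1.096. On the scale of the median gene 5 were higher and none lower, beside 18.5% and 12.5%. Ankrd37 and Mxi1 passed the filter only through the untreated library there and are outside these counts. Ankrd37, a usual target, stood at 0.30 (0.24 to 0.36) of its untreated level, at 7.62 against 25.6 CPM, and Mxi1, a MYC antagonist, at 0.54, while Vegfa stood at 0.87. With IFN-γ 4 were higher, Hif1a, Egln1, P4ha1 and Kdm3a, and none was lower, beside 17.4% and 0.592% of all such genes, with a median of 1.31 against 1.25. None was higher and 1, Ddit4, was lower relative to the median gene, beside 4.11% and 3.34%.

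In α-like cells 15 genes of the hypoxia-inducible factor list passed the filter in the untreated and IL-1β libraries, and 7 of them were higher and 1 lower with IL-1β, beside the 16.7% and 13.9% given above. With both cytokines 4 of 13 were higher and 2 lower, beside 14.3% and 21.7%. With IFN-γ the median fold of 13 was 1.12, against 1.07 over all such genes. Pfkfb3 and Slc2a1 passed the filter with IL-1β only through the treated library, where they were high, so that their values are a description. Pfkfb3 stood at 8.01 CPM untreated and at 139, 24.2 and 192 with IL-1β, IFN-γ and both cytokines, on 7 untreated UMIs, a fold of 17.4 (8.35 to 43.7) with IL-1β. Hif1a stood at 70.9, 431, 75.9 and 301, a fold of 6.08 with IL-1β. Slc2a1 stood at 4.58, 67.2, 9.43 and 49.2, a fold of 14.7 (5.61 to 54.6) with IL-1β, on 4 untreated UMIs. Among the other genes usually kept low in β-cells 2 passed the filter in the untreated and IL-1β libraries and 1, Lmo4, was higher with IL-1β, 3.89-fold on 9 untreated UMIs. Igfbp4 passed only through the IL-1β library and stood at 33.6 CPM there against 3.43 untreated, on 3 untreated UMIs.

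β-like cells of 1 library differed in whether they had a UMI of Nos2, the inducible nitric oxide synthase. In the both-cytokine library Bnip3 and the 6 glycolytic enzymes differed with it in CPM. Of its thinned cells 907 had a Nos2 UMI and 347 had none, with median depths of 12901 and 10962 UMIs before thinning. At 4000 UMIs a cell, Bnip3 in cells with Nos2 stood at 0.56 (0.48 to 0.64) of its level in cells without, at 125 against 226 CPM. Tpi1 stood at 0.65 (0.59 to 0.72), Eno1 at 0.71, Aldoa at 0.72, Gapdh at 0.77, Pkm at 0.77 and Pgk1 at 0.86 (0.77 to 0.95). The intervals of these 7 lay below 1, as did those of 17.7% of 7329 genes detected in at least 10% of the cells. The median gene stood at 0.91, so that most genes were lower in the cells with Nos2. Relative to it Bnip3 stood at 0.61 (0.53 to 0.71) and Tpi1 at 0.72, while the interval of Pgk1, 0.85 to 1.05, held 1. Of all these genes 3.75% had a lower ratio than Bnip3 and 40.5% a lower one than Pgk1. Pfkfb3 went the other way, at 165 against 77.1 CPM, 2.13-fold (1.73 to 2.65), as did Hif1a, 1.47-fold, and Pfkp, 1.35-fold, with intervals above 1, as 7.16% of genes had.

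In the IL-1β library 337 cells had a Nos2 UMI and 747 had none. There Bnip3 stood at 0.87 (0.750 to 0.998), Aldoa at 0.82 (0.75 to 0.88), Pkm at 0.90 and Gapdh at 0.996 (0.92 to 1.07), and Pfkfb3 at 1.31 (1.10 to 1.56). The intervals of Pgk1 (0.83 to 1.02), Tpi1 (0.80 to 1.01), Eno1 (0.76 to 1.14) and Ldha (0.51 to 1.51) held 1, as did those of Hk1 and Slc16a1. The median gene stood at 0.96, and 8.35% of 6887 genes had an interval below 1 and 4.91% above it. The interval of Bnip3 relative to the median gene, 0.78 to 1.04, held 1. Whether the split differed between these libraries was not tested. Cells of 1 library are not replicates, and the shares of Nos2 differ with depth.

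**Figure D5:**
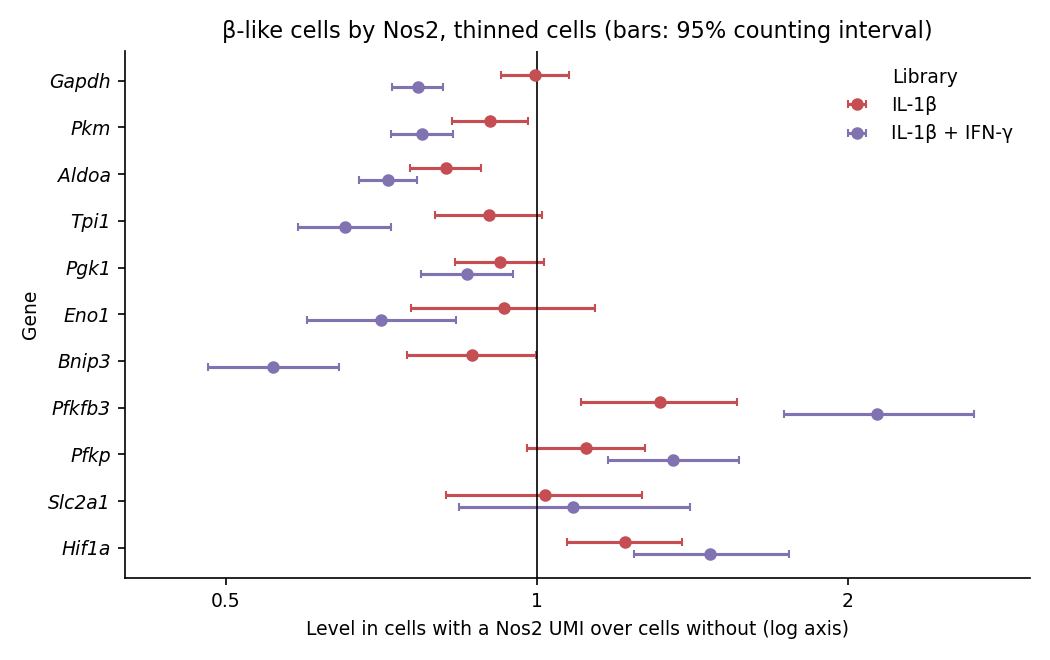
Ratio of the level in β-like cells with a Nos2 UMI to that in cells without (horizontal log axis) for 11 genes in the IL-1β and both-cytokine libraries, after thinning to 4000 UMIs a cell without the cells below that depth. Bars are 95% counting intervals. With both cytokines the 6 glycolytic enzymes and Bnip3 lie between 0.56 and 0.86, and Pfkfb3 lies at 2.13.

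Across the 11 groups of endocrine class and library with at least 50 cells, the genes whose levels were most like those of Ldha were Eny2, Fabp5 and Ctsl, with Pearson's r of log2(CPM + 1) of 0.96, 0.95 and 0.95 among 9692 genes. Those most like Bnip3 were Ufm1, Ero1l and Ube3c, at 0.96, 0.94 and 0.93. The groups share libraries and the hormone shares described above, so that these are descriptions. For Slc16a1, with 0 to 16 UMIs a group, no likeness is given.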

How the data were processed

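Mouse islets, cultured intact, were profiled with 10x Genomics 3' single-cell libraries. The submitters' processing notes name Cell Ranger and the genome build mm10, and the matrix headers give software version 3.0.0. The authors deposited UMI counts per gene and barcode, not normalized. The labels and the study's methods differ on the version of the capture kit. How reads shared with near-identical copies were assigned was not stated.

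Cells outside 200 to 4000 detected genes, or above 12% mitochondrial UMIs, were removed. No doublet caller was run. The upper limit removed 843, 146, 345 and 222 barcodes for untreated, IL-1β-, IFN-γ- and doubly treated islets, and 456 cells with mixed hormones and 449 unclassed cells entered no class. A hormone class needed a leading hormone at 5% of UMIs and 80% of hormone UMIs, and a non-endocrine class at least 3 markers and more than of any other type.

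Counts were summed per class and library and scaled to 1e+06 UMIs, with exact Poisson intervals. Folds carry exact conditional binomial intervals. Genes were tested when 10% of cells in either library had a UMI, and a gene was called past 1.5-fold, with no p-value. Lists were counted over genes past the filter in both libraries, a choice made after seeing the data. In sums simulated for the 8295 genes detected in at least 10% of untreated β-like cells, 200 of 200 genes changed 2-fold or 3-fold in either direction passed 1.5-fold in each of the 3 comparisons. These sums held counting noise only and no difference between libraries of 1 condition, which these data cannot show. Members, lists and markers were chosen with earlier results of these data known. Named are all members, list genes past 1.5-fold in any β-like comparison, the 2 most abundant of each list, and Ldhb, Slc16a3, Slc2a2 and Bnip3l, with Igfbp4 named after its values were seen. Some genes under this rule are not reported here. In total 9 alternatives were planned and 3 added after seeing the data. Scripts ran in Python 3.11.15 with pandas 2.3.3, scipy 1.17.1, numpy 2.4.6 and matplotlib 3.10.9, with RefSeq promoters and GENCODE M21 on GRCm38.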

Additional observations from a re-analysis of the deposited data

How the results depend on the processing

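No paired analysis was possible because each condition had 1 library, which also leaves the library and the treatment impossible to tell apart. Low counts limit Hk1 and Slc16a1 in β-like cells, and few cells limit every δ-like value, since the untreated library held 17 δ-like cells. Of 270 recomputed folds in β-like cells 207 stayed inside their counting interval. Among the folds that crossed 1, Ldha with both cytokines turned to 0.886 at 4000 UMIs a cell, and Ldha with IFN-γ also fell below 1 there. Gapdh and Aldoa with IL-1β stood at 0.79 and 0.83 without the hormone genes. Ldha in δ-like over β-like untreated cells became 0 at a purity of 90%. The causes were not tested. Of 168 recomputed counts of members past 1.5-fold 129 stayed within 1.5 times. The shares of all genes under these alternatives are not given, apart from the median-gene scale in the results above. The counts that follow therefore describe the processing and are no result about the members.

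In β-like cells the count higher with IL-1β was 0 without the hormone genes in the totals and 1 relative to the median gene, and the count lower was 2 and 1. The count lower with IFN-γ was 1 on both of these scales. The count higher with both cytokines was 0 without the hormone genes, 0 after thinning, 1 relative to the median gene and 1 with no upper limit on genes.

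In α-like cells Ldha was counted here where it passed the filter, unlike in the results above. With it the starting counts were 4 higher and 0 lower with IL-1β, and 2 and 0 with both cytokines. The count lower with IFN-γ, 1 at the start, was 2 with no upper limit, after thinning, without the hormone genes and at 10% hormone. It was also 2 at 90% purity and as a mean over cells. After thinning the count lower with IL-1β was 1. With both cytokines the count higher was 1 with no upper limit and after thinning, and the count lower was 1 with no upper limit, without the hormone genes and at 10% hormone.

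In δ-like cells the count lower with IL-1β was 1 with no upper limit, at 90% purity and as a mean over cells, and 4 after thinning, and the count higher was 5 at 90% purity and 0 without cells bearing other markers. With IFN-γ the count higher was 1 after thinning and at 10% hormone and 3 at 90% purity, and the count lower was 1 with no upper limit and at 10% hormone, 0 at 90% purity and 6 when Sst-led cells with Ppy were counted as δ-like. With both cytokines the count higher was 6 at 10% hormone, 5 at 90% purity and 0 with the Ppy-bearing cells, and the count lower was then 2.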

Other observations

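Cells that entered no class held Ldha levels between those of β-like and macrophage-like cells. In cells with mixed hormones Ldha stood at 109, 99.0, 35.3 and 45.4 CPM without treatment and with IL-1β, IFN-γ and both cytokines, and in unclassed cells at 278, 169, 115 and 231. In acinar-like cells, 9 to 22 a library, it stood at 146, 310.3, 601 and 425 CPM, on 16, 29, 48 and 18 UMIs. The sum of the 6 glycolytic enzymes in macrophage-like cells was highest without treatment, at 10245 CPM, against 6904, 7341 and 8865 with IL-1β, IFN-γ and both cytokines.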
